A study of Mus musculus with 10 samples.

Results

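The genes described here encode nuclear-encoded subunits of the mitochondrial respiratory chain and the ATP synthase, measured by RNA sequencing in the colorectum of BALB/c mice aged 7 weeks. They were chosen by symbol, as every annotated feature whose name begins with Ndufa, Ndufb, Ndufc, Ndufs, Ndufv, Uqcr, Cox4 to Cox8 or Atp5, together with Sdha, Sdhb, Sdhc and Sdhd. This gave 91 of the 23284 features in the files. Of these, 88 were tested because both libraries of some group exceeded the detection floor, among 13051 features tested in all. By their known roles 81 of the 91 are subunits, with 36 in complex I, 4 in complex II, 8 in complex III, 18 in complex IV and 15 in complex V. The other 10 carry a matching name without being subunits, most of them complex I assembly factors, and they are described apart. The subunits encoded by the mitochondrial genome itself were not analysed here. Nuclear-encoded subunits whose symbols do not match these names were not covered either, so the set of a complex may be incomplete.

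The respiratory chain sits in the inner mitochondrial membrane. Complexes I and II pass electrons from NADH and from succinate to ubiquinone, complex III passes them on to cytochrome c, and complex IV hands them to oxygen. Complexes I, III and IV pump protons, and complex V, the ATP synthase, uses the returning protons to make ATP. Colonocytes, the absorptive epithelial cells of the colon, are known to draw much of their energy from mitochondrial oxidation of butyrate made by gut bacteria. Transcripts of nuclear-encoded subunits are generally short, abundant and made in most cells of a tissue.

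The study placed 2 libraries in each of 5 groups. A pair of groups received miR-29a or miR-29b, with the rectum taken on day 4. The other treated groups received NC-miR, the control miRNA, with excision on day 4 or on day 2. These 4 groups drank 2% dextran sodium sulfate (DSS), a polymer that injures the colonic epithelium, and their miRNA was carried by sCA into the tail vein. The labels give injections on days 1, 2 and 3 also for the mice excised on day 2. The fifth group, normal mice, was not treated and was excised on day 0. DSS, carrier, miRNA, injection and day of excision therefore set all 4 treated groups apart from the normal mice together. These factors cannot be told apart in any comparison with the normal mice. The labels do not say that the libraries of a group came from separate animals, so p-values measure the spread between these libraries, which may be technical. In bulk tissue, fewer cells of a type and less RNA per cell cannot be told apart.

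The deposited values are log2 ratios of a library to a per-gene baseline, so they compare libraries within a gene and give no level of 1 gene against another. Between 10344 and 10604 features per library lay at the floor, and sequencing depth is unknown because no read counts were used here. The colorectal label fitted the markers, with all 10 absorptive colonocyte markers and all 6 goblet cell markers in the files above the floor. A single library stood apart. Replicate 1 of NC-miR at day 4 had a median of 5.5 log2 units above the normal mean over 3 tested markers of squamous epithelium, the lining of the anal canal, against -0.20 to 0.54 in the other 7 libraries from DSS-treated mice. Of 9 markers on the squamous list, Dsg3, Krt4 and Trp63 were at the floor in all 10 libraries, and only 3 could be tested. The part of this library in the results was not tested. For comparisons with NC-miR at day 4, medians over all members and over complexes I, II, IV and V, and the differences of the genes described singly, are also given without it, where the remaining library is assumed to vary like the other groups.

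The injected miRNAs are shown because they define the groups, although the labels state neither the arm nor the sequence used. RefSeq (GRCm38.p6) gives the mature 3p sequences below, with the seed, bases 2 to 8, in capitals. They share the seed and differ at 4 positions over the shorter length.
mmu-miR-29a-3p: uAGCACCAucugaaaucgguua
mmu-miR-29b-3p: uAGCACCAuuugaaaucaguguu
The first has 22 bases and lies at chr6:31062673-31062694 on the minus strand. The second has 23 bases and is encoded at 2 places, chr6:31063025-31063047 on the minus strand and chr1:195037091-195037113 on the plus strand. The DNA match to the seed, TGGTGCT, was found in the 3′ UTR of 3 of 87 respiratory chain genes with an annotated 3′ UTR (3.45%), against 1739 of 11564 tested genes (15%). The respiratory chain genes have short 3′ UTRs, with a median of 188 bases against 1112 bases for all genes. The 3 genes with a match were Atp5g1, Ndufb8 and Sdhc. Each 3′ UTR was that of the longest annotated protein-coding transcript, with 4252, 1643 and 2636 bases for these 3 genes. Whether those long transcripts are the ones expressed here was not tested.

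Promoters are shown for 2 members whose upstream sequence holds the binding motif of NRF1, a transcription factor known to act on many respiratory chain genes. The motif searched was GCGCATGC on both strands, in a window of 250 bases before to 50 bases after each RefSeq start. Of the 74 tested members with a window, 12 held the motif (16.2%), against 824 of 27025 genes (3.05%). The 27025 were all RefSeq genes with a window, whether or not they were tested here, whereas the members were all tested. The part of that unlike background in the shares was not tested. The YY1 core AAGATGGCG was in 8 members (10.8%, against 1.64% of genes) and the ETS-family site CCGGAAGT in 5 (6.76%, against 4.31%). At least 1 of the 3 motifs was in 24 of the 74 members (32.4%), against 8.47% of genes. A match is a description of the letters, not evidence of binding. The 250 bases upstream of Cox6a1 (chr5:115348959-115349208) and Atp5g2 (chr15:102671048-102671297), both on the minus strand, are given with the match in capitals; the capitals hold 2 overlapping matches, the motif and its reverse complement.
Cox6a1: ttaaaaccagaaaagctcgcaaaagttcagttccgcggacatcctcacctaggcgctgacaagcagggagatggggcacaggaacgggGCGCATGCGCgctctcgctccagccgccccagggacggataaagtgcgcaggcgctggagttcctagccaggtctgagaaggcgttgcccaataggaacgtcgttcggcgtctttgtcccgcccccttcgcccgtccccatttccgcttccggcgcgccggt
Atp5g2: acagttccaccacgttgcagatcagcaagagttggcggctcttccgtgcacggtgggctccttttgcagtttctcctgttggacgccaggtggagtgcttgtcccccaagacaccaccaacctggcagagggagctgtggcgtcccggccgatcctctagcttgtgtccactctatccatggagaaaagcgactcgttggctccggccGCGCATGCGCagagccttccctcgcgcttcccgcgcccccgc

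No respiratory chain gene passed the test in any of the 9 comparisons between groups. Differences were fitted with limma on the deposited log2 values over all 10 libraries and called at a Benjamini-Hochberg adjusted p under 0.05 over all 13051 features. The lowest adjusted p of any member was 0.126, for Ndufaf4, a complex I assembly factor, in NC-miR at day 4 against normal mice. The share of all features called was itself small. It was 0.421% for miR-29a and 0.49% for miR-29b against normal mice, 0.383% for NC-miR at day 4 and 1.22% for NC-miR at day 2 against normal mice, and 1.42% for the mean of the 4 DSS-treated groups against normal mice. For NC-miR at day 4 against day 2 it was 0.0153%, and for miR-29a against NC-miR at day 4, miR-29b against NC-miR at day 4 and miR-29a against miR-29b it was 0. In limma's F test for any difference among the 5 groups, 0 of 88 members and 0.375% of features were called, with a lowest adjusted p among members of 0.3. At an unadjusted p under 0.05, between 2 and 9 members per comparison passed, against 6.41% to 16.7% of all features.

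The intervals set how large an undetected difference could be. The median standard error of a difference was 0.16 log2 units over the members and 0.18 over all features. Depending on the comparison, 82 to 85 of the 88 members had a 95% interval within 1 log2 unit of 0. The number with an interval within a change of 1.5-fold was lowest at 48 in miR-29b against NC-miR at day 4 and highest at 78 in the mean of the DSS-treated groups against normal mice. Differences inside these intervals may have gone uncalled with 2 libraries a group. The intervals are not adjusted for the number of features, so some exclude 0 without a call. An example is Ndufaf4 in NC-miR at day 4 against normal mice, with 0.25 to 0.88.

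**Figure D1:**
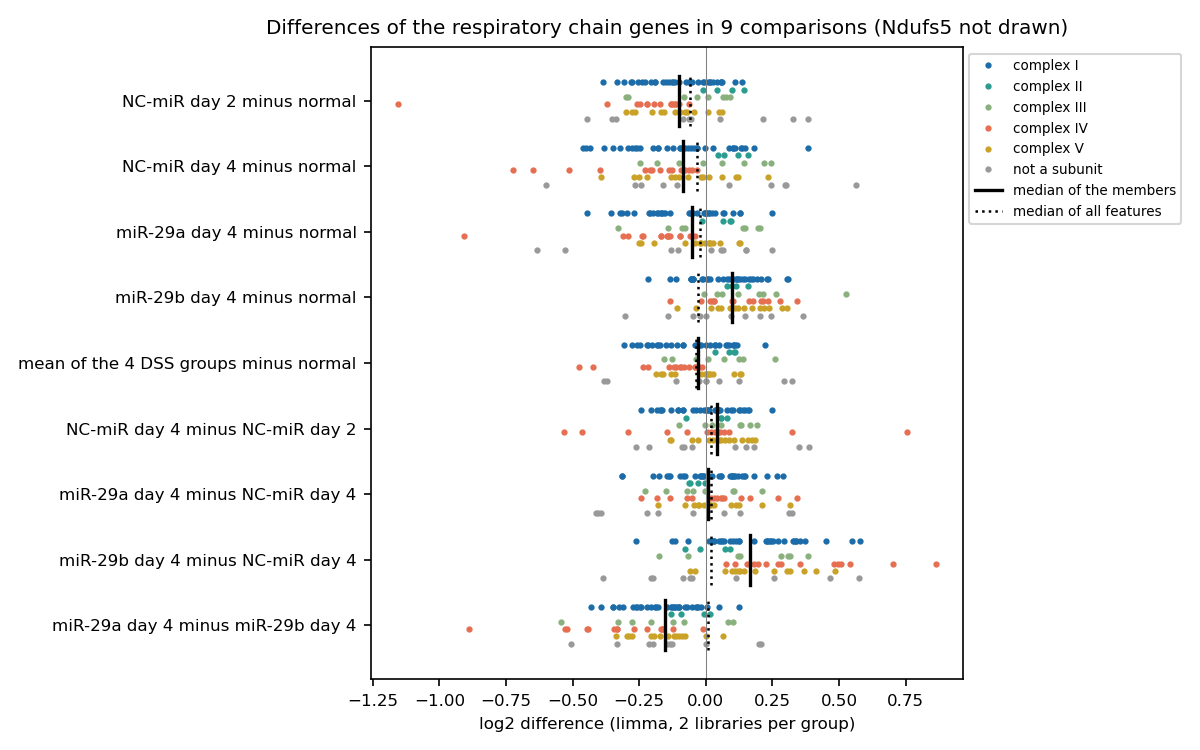
Difference in log2 units for each tested gene in each of the 9 comparisons, first-named group minus second, with complexes in separate colours. The points of every comparison straddle 0 for complex I, while the 15 complex IV points lie below 0 in 3 of the 4 single comparisons with normal mice and above 0 in miR-29b against NC-miR at day 4; Ndufs5 is not drawn.

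In 3 of the 5 groups the replicates stood apart in nearly all members at once. In normal mice, replicate 1 lay above replicate 2 in 85 of the 88 genes, with a median of replicate 2 minus replicate 1 of -0.24 log2 units, whereas 50.8% of all features did so. In the miR-29b group, replicate 2 lay above replicate 1 in 83 genes (53.4% of all features), with a median gap of 0.26. In NC-miR at day 4, replicate 2 was the higher in 78 genes (47.5% of all features), with a median gap of 0.15. The miR-29a and NC-miR day 2 pairs were closer, with replicate 2 higher in 50 and 60 genes and median gaps of 0.013 and 0.048. Of the 88 genes, 48 had their highest value in miR-29b replicate 2 and 21 in normal replicate 1, so these libraries held the top value of 54.5% and 23.9% of members, against 17.6% and 13.6% of all features. The lowest value fell in NC-miR day 4 replicate 1 for 28 genes (31.8%, against 9.29% of all features) and in normal replicate 2 for 21 (23.9%, against 10.3%). Each comparison below rests on these libraries.

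**Figure D2:**
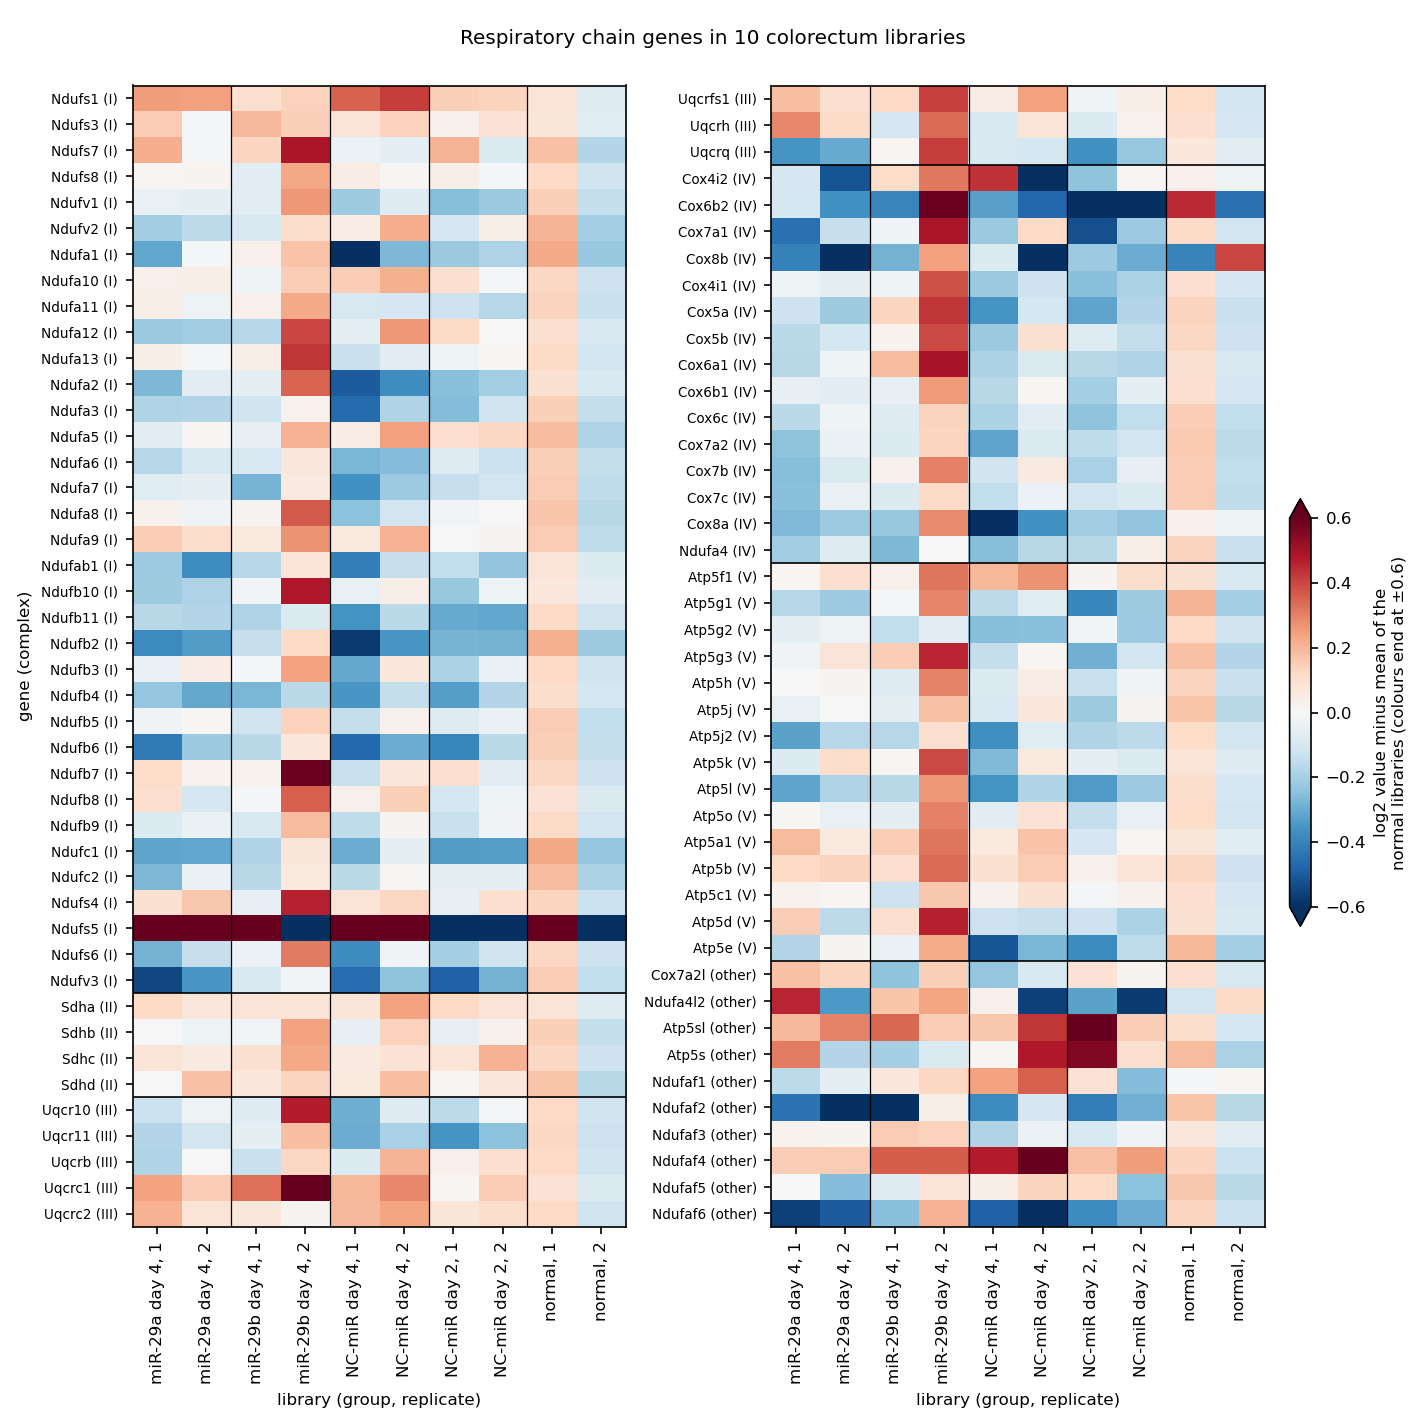
Heat map of log2 values minus the mean of the normal libraries for 87 of the tested genes (rows, ordered by complex) in the 10 libraries (columns, replicates side by side within each group), with colours that end at ±0.6. The miR-29b replicate 2 column and the normal replicate 1 column are high across complexes, and their partners in the same group are not.

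Relative to the mean of the normal libraries, the median over the 88 genes was -0.062 and -0.039 in the miR-29a libraries, -0.049 and 0.23 in the miR-29b libraries, -0.14 and 0.0068 in NC-miR at day 4, and -0.13 and -0.074 in NC-miR at day 2, against 0.12 and -0.12 in the normal libraries themselves (replicate 1 first, here and throughout). Only miR-29b replicate 2 lay outside the range that the normal pair spanned on the high side. NC-miR day 4 replicate 1 and NC-miR day 2 replicate 1 lay just outside it on the low side.

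**Figure D3:**
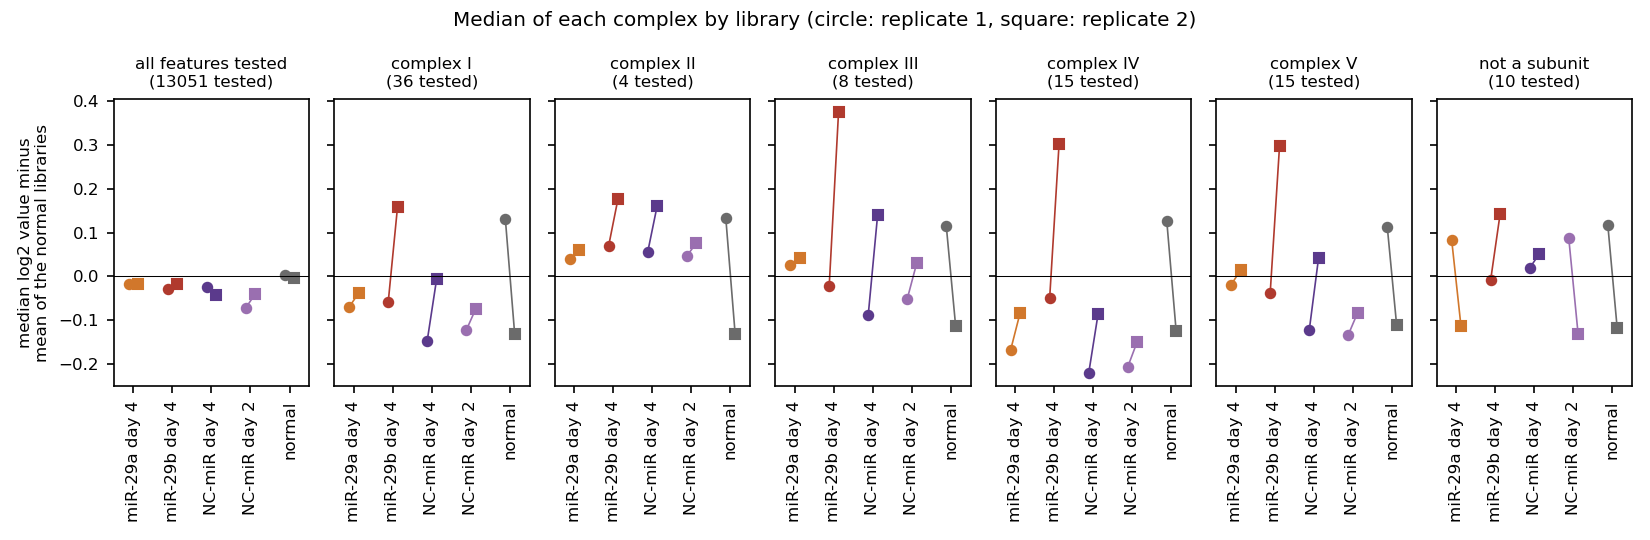
Median over the tested genes of each complex in each library, in log2 units relative to the mean of the normal libraries, with the groups from miR-29a on the left to normal mice on the right. Complex IV reaches 0.30 in miR-29b replicate 2 and lies between -0.22 and -0.049 in the other 7 libraries from DSS-treated mice, and complex II lies between 0.040 and 0.18 in all 8.

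Complex I is the largest, and its 36 members, 7 core subunits and 29 accessory ones, all met the condition for testing. The complex I median was 0.037 in miR-29a against NC-miR at day 4 (20 of 36 positive) and 0.15 in miR-29b against NC-miR at day 4 (31 of 36 positive). Against normal mice it was -0.054 for miR-29a, 0.082 for miR-29b, -0.087 for NC-miR at day 4 and -0.11 for NC-miR at day 2. Over all features these 6 medians lay between -0.058 and 0.018. With the length trend removed, the complex I median was -0.054 for miR-29a and -0.023 for miR-29b against NC-miR at day 4, and 0.019, 0.059, 0.088 and 0.015 for the same 4 groups against normal mice, so most of these signs turned. In NC-miR at day 4 against normal mice the median was 0.026 over the core subunits, which hold the redox centres, and -0.12 over the accessory ones, and the contrast between these subsets was not tested. Without NC-miR day 4 replicate 1 the complex I median was -0.030 for miR-29a and 0.081 for miR-29b against NC-miR at day 4, and -0.0067 for NC-miR at day 4 against normal mice. Without miR-29b replicate 2 it was 0.063 for miR-29b against NC-miR at day 4 and -0.060 for miR-29b against normal mice.

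Ndufs1 carries iron-sulfur clusters in the electron path and lies at chr1:63143592-63176822 in GRCm38.p6. Ndufs1 had log2 values of 0.11 and 0.10 with miR-29a, -0.042 and -0.004 with miR-29b, 0.21 and 0.27 with NC-miR at day 4 and -0.003 and -0.013 with NC-miR at day 2, against -0.067 and -0.22 in normal mice. Both NC-miR day 4 libraries were the highest of the 10 and both normal libraries the lowest, without overlap. The difference of NC-miR at day 4 from normal mice was 0.39 ± 0.12 (SE, limma adjusted p = 0.196). Ndufv1 holds the site where NADH is oxidised. Ndufv1 had log2 values of 0.024 and 0.015 with miR-29a, 0.00083 and 0.33 with miR-29b, -0.15 and -0.0094 with NC-miR at day 4 and -0.19 and -0.16 with NC-miR at day 2, against 0.21 and -0.074 in normal mice. The normal libraries lay on either side of 0, and every other group overlapped them except NC-miR at day 2, whose libraries lay below both normal ones.

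Ndufa2 and Ndufv3 are accessory subunits and had the smallest F-test p among the complex I genes. Ndufa2 had log2 values of -0.18 and 0.033 with miR-29a, 0.036 and 0.45 with miR-29b, -0.40 and -0.27 with NC-miR at day 4 and -0.15 and -0.11 with NC-miR at day 2, against 0.19 and 0.0062 in normal mice. Both miR-29b libraries lay above both NC-miR day 4 libraries. For miR-29b minus NC-miR at day 4 the difference was 0.58 ± 0.17 (SE, limma adjusted p = 0.339). For Ndufv3 the log2 values were -0.37 and -0.17 in the miR-29a libraries, 0.083 and 0.16 in the miR-29b libraries, -0.28 and -0.065 in NC-miR at day 4, -0.31 and -0.11 in NC-miR at day 2 and 0.32 and 0.03 in normal mice. Here the miR-29b and normal libraries were all above 0 and the other 6 were all below it. Set against normal mice, Ndufv3 differed in the miR-29a group by -0.45 ± 0.16 (SE, limma adjusted p = 0.352). Between miR-29a and miR-29b its difference was -0.39 ± 0.16 (SE, limma adjusted p = 0.667).

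Ndufs5, another accessory subunit, was the most variable member. Its value was the floor in 4 libraries, namely miR-29b replicate 2, normal replicate 2 and the NC-miR day 2 pair, and its values ranged over 5.29 log2 units. Ndufs5 had log2 values of 0.43 and 2.39 with miR-29a, 0.62 and -2.85 with miR-29b, 0.47 and 0.58 with NC-miR at day 4 and -2.90 and -2.86 with NC-miR at day 2, against 1.85 and -2.82 in normal mice. High and low libraries occurred within the miR-29b and normal pairs, while both NC-miR day 4 libraries lay above both NC-miR day 2 libraries. NC-miR at day 4 minus day 2 was 3.40 ± 1.52 (SE, limma adjusted p = 0.779). In a fit of these 4 libraries alone the same difference had a standard error of 0.13 and the gene was called. The day 2 values are at the floor, so the size of that difference is not a measured fold. Many respiratory chain genes are known to have processed pseudogenes, and how reads shared with a near-identical copy were assigned is not given in the sources used here, so values of such genes are uncertain.

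Complex II also belongs to the citric acid cycle, and all 4 of its subunits are nuclear-encoded. The complex II median was 0.078 in miR-29a, 0.11 in miR-29b, 0.095 in NC-miR at day 4 and 0.070 in NC-miR at day 2, each against normal mice, and all 4 subunits were positive in the mean of the DSS-treated groups (median 0.097). On the deposited values Sdhb was slightly negative against normal mice in miR-29a (-0.015) and in NC-miR at day 2 (-0.012). All 4 were positive in each group with library medians set equal, with quantile normalization and with the length trend removed. Without NC-miR day 4 replicate 1 the complex II median of NC-miR at day 4 was 0.16. These comparisons share the normal libraries, and complex II was 0.13 above and 0.13 below their mean in the normal replicates. Both normal replicates thus lay farther from that mean than the 4 group medians over both libraries. Sdha had log2 values of 0.05 and -0.0024 with miR-29a, 0.005 and 0.014 with miR-29b, 0.003 and 0.17 with NC-miR at day 4 and 0.048 and 0.011 with NC-miR at day 2, against 0.0092 and -0.15 in normal mice. Sdha is the flavoprotein that oxidises succinate, and only NC-miR day 4 replicate 2 and normal replicate 2 departed from 0 by more than 0.1. For Sdhc the log2 values were -0.031 and -0.057 in the miR-29a libraries, -0.019 and 0.12 in the miR-29b libraries, -0.056 and -0.022 in NC-miR at day 4, -0.029 and 0.10 in NC-miR at day 2 and 0.013 and -0.23 in normal mice. Sdhc is 1 of the membrane anchors; its lowest library was normal replicate 2.

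Complex III takes electrons from ubiquinol. Of its 8 members, 7 were positive in miR-29b against normal mice (median 0.16), and its median in miR-29b replicate 2 was the highest of any complex, at 0.38 above the normal mean, against -0.023 in replicate 1. Uqcrc1 had log2 values of 0.042 and -0.052 with miR-29a, 0.13 and 0.52 with miR-29b, -0.002 and 0.09 with NC-miR at day 4 and -0.19 and -0.055 with NC-miR at day 2, against -0.11 and -0.29 in normal mice. Uqcrc1, a core protein of the complex at chr9:108936648-108949641, was higher in both miR-29b libraries than in both normal libraries. That difference was 0.53 ± 0.16 (SE, limma adjusted p = 0.186). For Uqcrq the log2 values were -0.30 and -0.25 in the miR-29a libraries, 0.066 and 0.47 in the miR-29b libraries, -0.04 and -0.052 in NC-miR at day 4, -0.31 and -0.17 in NC-miR at day 2 and 0.12 and -0.007 in normal mice. Uqcrq is a small subunit near the quinone site, and both miR-29a libraries lay below both miR-29b libraries. The miR-29a minus miR-29b difference was -0.54 ± 0.16 (SE, limma adjusted p = 0.665). In Uqcrfs1 the miR-29a libraries stood at 0.077 and -0.0024, the miR-29b libraries at 0.016 and 0.31, the NC-miR day 4 libraries at -0.057 and 0.14, the NC-miR day 2 libraries at -0.12 and -0.063 and the normal libraries at 0.0092 and -0.21 on the log2 scale. In Uqcrfs1, the Rieske iron-sulfur protein, miR-29b replicate 2 was the highest library and normal replicate 2 the lowest.

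Complex IV is cytochrome c oxidase. Of its 15 tested genes, none was positive in miR-29a against normal mice (median -0.15), in NC-miR at day 4 against normal mice (median -0.17) or in NC-miR at day 2 against normal mice (median -0.17), while 13 of 15 were positive in miR-29b against normal mice (median 0.10). Against NC-miR at day 4, 15 of 15 were positive for miR-29b (median 0.28) and 10 of 15 for miR-29a (median 0.040). In miR-29a against miR-29b, 0 of 15 were positive (median -0.33). Over all features, 41.2% to 46.1% were positive against normal mice. The comparisons share libraries, so these counts are not independent, and no gene among them passed the test. With the length trend removed, 2 of 15 were positive for miR-29a, 10 for miR-29b, 10 for NC-miR at day 4 and 5 for NC-miR at day 2 against normal mice, and 9 for miR-29b against NC-miR at day 4. The same alternative gave 3 of 15 for miR-29a against NC-miR at day 4 (median -0.11) and 1 of 15 for miR-29a against miR-29b (median -0.22). Without NC-miR day 4 replicate 1, 15 of 15 were positive for miR-29b against NC-miR at day 4 (median 0.12), 6 of 15 for miR-29a against NC-miR at day 4 (median -0.032) and 4 of 15 for NC-miR at day 4 against normal mice (median -0.086). Without miR-29b replicate 2, 14 of 15 were positive for miR-29b against NC-miR at day 4 (median 0.086), 5 of 15 for miR-29b against normal mice (median -0.049) and 2 of 15 for miR-29a against miR-29b (median -0.065). Within the groups, the complex IV medians relative to the normal mean were -0.17 and -0.084 in miR-29a, -0.049 and 0.30 in miR-29b, -0.22 and -0.086 in NC-miR at day 4, -0.21 and -0.15 in NC-miR at day 2, and 0.13 and -0.13 in normal mice. The high value thus came from replicate 2 of miR-29b, and normal replicate 2 lay among the DSS-treated libraries.

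Among the general complex IV subunits, Cox6a1 and Cox5a had the smallest F-test p. Cox6a1 had log2 values of -0.15 and -0.0062 with miR-29a, 0.21 and 0.52 with miR-29b, -0.17 and -0.065 with NC-miR at day 4 and -0.15 and -0.16 with NC-miR at day 2, against 0.11 and -0.069 in normal mice. Cox6a1, the isoform of most tissues, lies at chr5:115345652-115348958, and both miR-29b libraries exceeded the other 8. The difference of miR-29b from NC-miR at day 4 was 0.48 ± 0.15 (SE, limma adjusted p = 0.339). For miR-29a minus miR-29b it was -0.44 ± 0.15 (SE, limma adjusted p = 0.665). For Cox5a the log2 values were -0.03 and -0.12 in the miR-29a libraries, 0.22 and 0.52 in the miR-29b libraries, -0.26 and -0.0081 in NC-miR at day 4, -0.22 and -0.081 in NC-miR at day 2 and 0.23 and -0.038 in normal mice. The miR-29b pair of Cox5a lay above the NC-miR day 4 pair but overlapped the normal pair. Against NC-miR at day 4 the miR-29b difference of Cox5a was 0.51 ± 0.17 (SE, limma adjusted p = 0.347). In Cox8a the miR-29a libraries stood at -0.082 and -0.036, the miR-29b libraries at -0.044 and 0.46, the NC-miR day 4 libraries at -0.48 and -0.18, the NC-miR day 2 libraries at -0.026 and -0.055 and the normal libraries at 0.21 and 0.15 on the log2 scale. Cox8a, the general form of the smallest subunit, was lowest in NC-miR day 4 replicate 1. Its miR-29b minus NC-miR day 4 difference was 0.54 ± 0.18 (SE, limma adjusted p = 0.353).

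The remaining general isoforms stayed closer together. Cox4i1 had log2 values of 0.031 and 0.0078 with miR-29a, 0.037 and 0.44 with miR-29b, -0.16 and -0.065 with NC-miR at day 4 and -0.19 and -0.13 with NC-miR at day 2, against 0.16 and -0.038 in normal mice. Cox4i1, the general isoform of subunit 4, had 1 library well above the rest, miR-29b replicate 2. For Cox6b1 the log2 values were -0.028 and -0.047 in the miR-29a libraries, -0.028 and 0.28 in the miR-29b libraries, -0.15 and 0.035 in NC-miR at day 4, -0.18 and -0.036 in NC-miR at day 2 and 0.12 and -0.079 in normal mice. In Cox7a2 the miR-29a libraries stood at -0.16 and 0.04, the miR-29b libraries at -0.00055 and 0.21, the NC-miR day 4 libraries at -0.24 and -0.0047, the NC-miR day 2 libraries at -0.073 and -0.029 and the normal libraries at 0.24 and -0.077 on the log2 scale. Cox6b1 spanned 0.46 log2 units over all libraries and Cox7a2 0.47, and both are the general isoforms of their subunits. For Ndufa4 the log2 values were -0.11 and 0.026 in the miR-29a libraries, -0.17 and 0.11 in the miR-29b libraries, -0.15 and -0.062 in NC-miR at day 4, -0.062 and 0.14 in NC-miR at day 2 and 0.24 and -0.031 in normal mice. Ndufa4 carries a complex I name but is known as a complex IV subunit, and its highest library was normal replicate 1.

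The tissue isoforms of complex IV had wide spans between replicates. Cox4i2 had log2 values of 0.03 and -0.38 with miR-29a, 0.24 and 0.45 with miR-29b, 0.56 and -1.60 with NC-miR at day 4 and -0.11 and 0.14 with NC-miR at day 2, against 0.16 and 0.10 in normal mice. Cox4i2, an isoform known from lung and from low oxygen, spanned 2.16 log2 units because the NC-miR day 4 replicates were the highest and the lowest of the 10. For Cox6b2 the log2 values were 0.078 and -0.18 in the miR-29a libraries, -0.21 and 0.78 in the miR-29b libraries, -0.14 and -0.29 in NC-miR at day 4, -0.91 and -1.03 in NC-miR at day 2 and 0.63 and -0.26 in normal mice. Cox6b2, known as a testis isoform and located at chr7:4751792-4753094, had both NC-miR day 2 libraries below the other 8. NC-miR at day 2 minus normal mice was -1.16 ± 0.36 (SE, limma adjusted p = 0.189). In Cox7a1 the miR-29a libraries stood at -0.32 and -0.016, the miR-29b libraries at 0.099 and 0.61, the NC-miR day 4 libraries at -0.098 and 0.24, the NC-miR day 2 libraries at -0.40 and -0.096 and the normal libraries at 0.24 and 0.0083 on the log2 scale. Cox7a1, the heart and skeletal muscle isoform, was lower in both miR-29a libraries than in both miR-29b libraries. Its miR-29a minus miR-29b difference was -0.53 ± 0.22 (SE, limma adjusted p = 0.67). For Cox8b the log2 values were 0.05 and -0.95 in the miR-29a libraries, 0.17 and 0.70 in the miR-29b libraries, 0.37 and -0.90 in NC-miR at day 4, 0.24 and 0.16 in NC-miR at day 2 and 0.055 and 0.86 in normal mice. Cox8b, an isoform of muscle and brown fat, reached similar lows in miR-29a replicate 2 and NC-miR day 4 replicate 2. Of 10 markers of brown adipocytes and striated muscle, 6 were at the floor in all libraries, among them Ucp1, Mb and Actn3, and 3 could be tested. Their part in the Cox8b and Cox7a1 values was not tested. Cox6a2, the muscle partner of Cox6a1, was above the floor only in NC-miR day 2 replicate 1 (0.16) and normal replicate 2 (0.68), and Cox7b2 and Cox8c were at the floor in all 10 libraries.

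**Figure D4:**
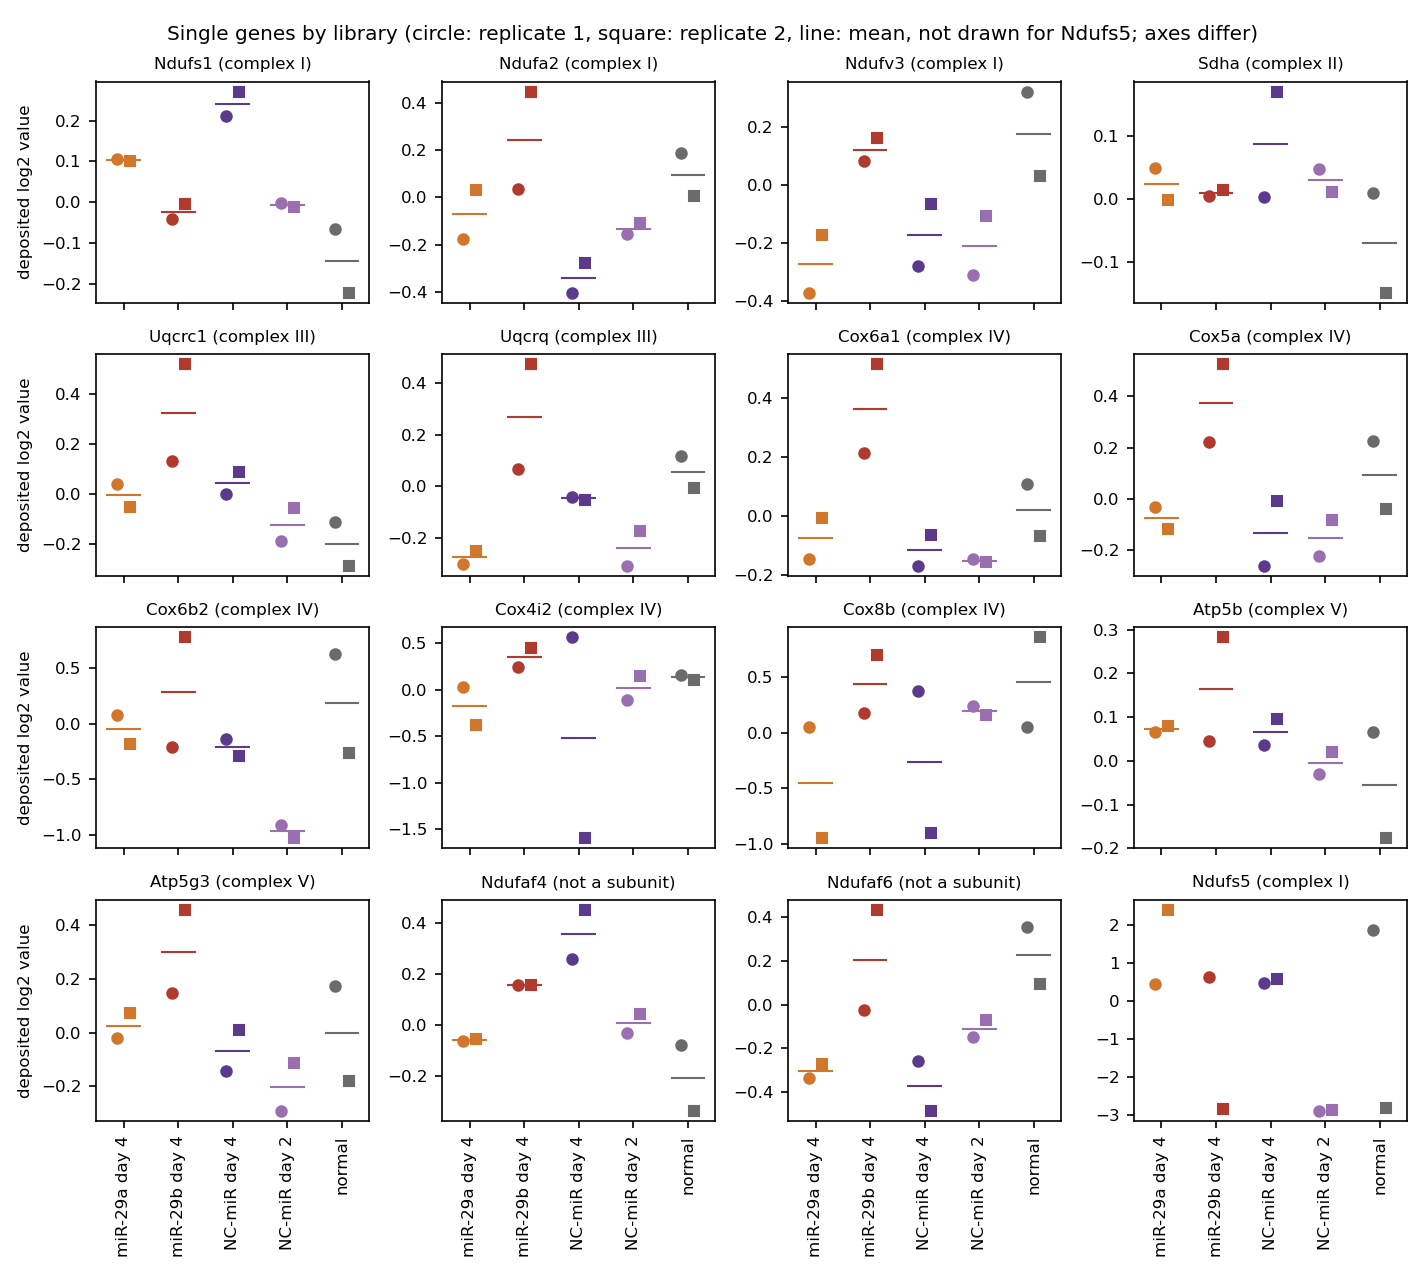
Deposited log2 values of 16 respiratory chain genes in every library, with a line at each group mean except for Ndufs5; groups run from miR-29a on the left to normal mice on the right. Both miR-29b points of Cox6a1 lie above all others, and in Cox4i2, Cox8b and Ndufs5 the replicates of at least 1 group lie farther apart than any of the group means.

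Complex V makes ATP. Of its 15 members, 13 were positive in miR-29b against normal mice (median 0.12) and 13 in miR-29b against NC-miR at day 4 (median 0.14), against 7 in miR-29a against normal mice (median -0.0048). The median of miR-29b against NC-miR at day 4 was -0.018 with the length trend removed, and that of miR-29a against normal mice was 0.016 with library medians set equal. Without NC-miR day 4 replicate 1 the median of miR-29b against NC-miR at day 4 was 0.068, with 12 of 15 positive. Without miR-29b replicate 2 it was 0.048, with 9 of 15 positive, and that of miR-29b against normal mice was -0.039, with 6 of 15 positive. The 5 subunits of the catalytic head and central stalk had a median of 0.017 in miR-29a against normal mice and 0.060 in NC-miR at day 4 against normal mice, and the 10 of the membrane part and peripheral stalk -0.020 and -0.083. Atp5a1 had log2 values of 0.14 and 0.0097 with miR-29a, 0.099 and 0.27 with miR-29b, 0.0099 and 0.12 with NC-miR at day 4 and -0.15 and -0.039 with NC-miR at day 2, against 0.025 and -0.12 in normal mice. For Atp5b the log2 values were 0.067 and 0.079 in the miR-29a libraries, 0.045 and 0.28 in the miR-29b libraries, 0.035 and 0.096 in NC-miR at day 4, -0.03 and 0.02 in NC-miR at day 2 and 0.067 and -0.18 in normal mice. Atp5a1 and Atp5b, the alpha and beta subunits that form the catalytic head, both had their highest value in miR-29b replicate 2. In Atp5e the miR-29a libraries stood at -0.081 and 0.11, the miR-29b libraries at 0.054 and 0.31, the NC-miR day 4 libraries at -0.42 and -0.18, the NC-miR day 2 libraries at -0.28 and -0.059 and the normal libraries at 0.29 and -0.11 on the log2 scale. Atp5e, the epsilon subunit of the stalk, was lowest in NC-miR day 4 replicate 1, and its miR-29b libraries did not overlap the NC-miR day 4 libraries. That difference was 0.48 ± 0.19 (SE, limma adjusted p = 0.378).

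Atp5g1, Atp5g2 and Atp5g3 encode the same mature membrane subunit, the c subunit of the proton-driven rotor, from 3 genes. Atp5g1 had log2 values of -0.089 and -0.13 with miR-29a, 0.074 and 0.38 with miR-29b, -0.073 and 0.011 with NC-miR at day 4 and -0.31 and -0.13 with NC-miR at day 2, against 0.29 and -0.12 in normal mice. For Atp5g2 the log2 values were 0.057 and 0.079 in the miR-29a libraries, -0.038 and 0.041 in the miR-29b libraries, -0.15 and -0.14 in NC-miR at day 4, 0.096 and -0.11 in NC-miR at day 2 and 0.23 and -0.0086 in normal mice. In Atp5g3 the miR-29a libraries stood at -0.021 and 0.073, the miR-29b libraries at 0.15 and 0.46, the NC-miR day 4 libraries at -0.14 and 0.0083, the NC-miR day 2 libraries at -0.29 and -0.11 and the normal libraries at 0.17 and -0.18 on the log2 scale. Atp5g1 and Atp5g3 shared the high miR-29b replicate 2 value, while the highest library of Atp5g2 was normal replicate 1. Atp5g1 holds 2 matches to the miR-29 seed in the 3′ UTR of its longest annotated transcript, and Ndufb8 and Sdhc hold 1 each. For Atp5g1 the miR-29a minus NC-miR day 4 difference was -0.079 ± 0.17 (SE, limma adjusted p = 0.927). With miR-29b it was 0.26 ± 0.17 (SE, limma adjusted p = 0.541). Ndufb8 differed by -0.09 with miR-29a and 0.09 with miR-29b (SE 0.16), and Sdhc by -0.0045 and 0.089 (SE 0.13); the limma adjusted p of these 4 differences lay between 0.785 and 0.998.

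The 10 genes that share the names but are not subunits include the member with the lowest adjusted p. Ndufaf4 had log2 values of -0.061 and -0.054 with miR-29a, 0.16 and 0.16 with miR-29b, 0.26 and 0.45 with NC-miR at day 4 and -0.032 and 0.045 with NC-miR at day 2, against -0.08 and -0.34 in normal mice. Ndufaf4, at chr4:24898083-24905001, is needed to assemble complex I, and both of its NC-miR day 4 libraries were above the other 8. NC-miR at day 4 minus normal mice was 0.56 ± 0.14 (SE, limma adjusted p = 0.126). The miR-29a minus NC-miR day 4 difference of Ndufaf4 was -0.41 ± 0.14 (SE, limma adjusted p = 0.62). For Ndufaf6 the log2 values were -0.34 and -0.27 in the miR-29a libraries, -0.027 and 0.43 in the miR-29b libraries, -0.26 and -0.49 in NC-miR at day 4, -0.15 and -0.071 in NC-miR at day 2 and 0.36 and 0.096 in normal mice. Ndufaf6, another assembly factor, at chr4:11048991-11076237, leaned the other way in the same comparison. For it, NC-miR at day 4 minus normal mice was -0.60 ± 0.18 (SE, limma adjusted p = 0.193). In Ndufaf1 the miR-29a libraries stood at -0.23 and -0.13, the miR-29b libraries at -0.011 and 0.05, the NC-miR day 4 libraries at 0.17 and 0.29, the NC-miR day 2 libraries at 0.012 and -0.33 and the normal libraries at -0.08 and -0.069 on the log2 scale. Ndufaf1, also an assembly factor, was highest in the NC-miR day 4 pair. Its miR-29a minus NC-miR day 4 difference was -0.41 ± 0.15 (SE, limma adjusted p = 0.626).

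Ndufa4l2 and Cox7a2l are relatives of Ndufa4 and Cox7a2 with other roles, Ndufa4l2 being known as a target of hypoxia-inducible factor and Cox7a2l as a factor that joins complexes III and IV. Ndufa4l2 had log2 values of 0.55 and -0.26 with miR-29a, 0.25 and 0.32 with miR-29b, 0.12 and -0.47 with NC-miR at day 4 and -0.23 and -0.49 with NC-miR at day 2, against -0.029 and 0.20 in normal mice. For Cox7a2l the log2 values were 0.18 and 0.13 in the miR-29a libraries, -0.24 and 0.14 in the miR-29b libraries, -0.23 and -0.091 in NC-miR at day 4, 0.087 and 0.014 in NC-miR at day 2 and 0.095 and -0.098 in normal mice. Ndufa4l2 spanned 1.03 log2 units with its extremes in miR-29a replicate 1 and NC-miR day 2 replicate 2. Cox7a2l was highest in miR-29a replicate 1, and its miR-29a libraries lay above both NC-miR day 4 libraries. Over all tested members, 82 of 88 spanned less than 1 log2 unit across the 10 libraries, and the median span was 0.53.

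The differences of single genes against NC-miR at day 4 moved as follows without its replicate 1, and none was called with limma. For miR-29b minus NC-miR at day 4 the difference became 0.52 for Ndufa2, 0.43 for Cox6a1, 0.38 for Cox5a, 0.39 for Cox8a, 0.36 for Atp5e and 0.22 for Atp5g1, so all 6 stayed positive. For miR-29a minus NC-miR at day 4 it became -0.51 for Ndufaf4, -0.47 for Ndufaf1 and -0.12 for Atp5g1, again with the sign unchanged. Ndufb8 then stood at -0.14 with miR-29a and 0.034 with miR-29b, and Sdhc at -0.022 and 0.072. For NC-miR at day 4 minus normal mice, Ndufaf4 stood at 0.66, Ndufs1 at 0.42 and Ndufaf6 at -0.71, each farther from 0 than with both libraries. The only remaining library of Cox4i2 is its lowest, and its difference from normal mice became -1.73, against -0.65 with both libraries.

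Set side by side for all 88 genes, miR-29b minus NC-miR at day 4 had a median of 0.17 with 71 genes positive (53.0% of all features positive, median 0.018), and miR-29a minus NC-miR at day 4 a median of 0.0094 with 46 positive (53.4%, median 0.018). miR-29a minus miR-29b had a median of -0.15 with 11 positive (51.8%, median 0.0082). These 3 comparisons share libraries in pairs, and each moved with single libraries. With library medians set equal, miR-29a minus NC-miR at day 4 turned to -0.0018. Without miR-29b replicate 2 the medians were 0.049 for miR-29b minus NC-miR at day 4 and -0.021 for miR-29a minus miR-29b. Without NC-miR day 4 replicate 1 the medians were -0.061 for miR-29a and 0.086 for miR-29b, each minus NC-miR at day 4. With the trend on transcript length removed the miR-29b minus NC-miR day 4 median was -0.023 and that of miR-29a -0.087, and miR-29a minus miR-29b had a median of -0.059. At an unadjusted p under 0.05, 9 members were positive and 0 negative in miR-29b against NC-miR at day 4, which is 9 of 88 where 12.5% of all features passed. In miR-29a against NC-miR at day 4, 2 members passed at that level, and in miR-29a against miR-29b 7 did, where 7.63% and 7.43% of all features passed.

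Against normal mice, the median over the 88 genes was -0.053 for miR-29a (33 positive, 46.1% of all features), 0.10 for miR-29b (67 positive, 45.3%), -0.085 for NC-miR at day 4 (29 positive, 44.6%) and -0.10 for NC-miR at day 2 (24 positive, 41.2%), and it was -0.028 for the mean of the 4 groups (35 positive). The sign of each of these medians turned under some alternative. With library medians set equal the mean of the 4 groups had a median of 0.0025. Without normal replicate 1 the medians were 0.079 for miR-29a, 0.052 for NC-miR at day 4, 0.023 for NC-miR at day 2 and 0.088 for the mean of the 4 groups, and without normal replicate 2 they were -0.19, -0.21, -0.23 and -0.16. The miR-29b median was -0.049 without miR-29b replicate 2, and leaving out NC-miR day 4 replicate 1 gave 0.0068 for NC-miR at day 4. With the trend on transcript length removed the medians were 0.021 for miR-29a, 0.081 for miR-29b, 0.11 for NC-miR at day 4, 0.016 for NC-miR at day 2 and 0.063 for the mean of the 4 groups. Between the NC-miR times, day 4 minus day 2, the median was 0.040 with 56 positive (54.7% of all features), and it was 0.12 without NC-miR day 4 replicate 1, -0.034 without NC-miR day 4 replicate 2 and 0.11 with the length trend removed. With library medians set equal it was 0.020. At an unadjusted p under 0.05, 3 members passed for miR-29a, 3 for miR-29b, 6 for NC-miR at day 4, 2 for NC-miR at day 2 and 4 for the mean of the 4 groups, where 11%, 15.3%, 15.2%, 15.2% and 16.7% of all features did, and 2 members passed for NC-miR day 4 against day 2, where 6.41% did.

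The gaps between the miR-29b replicates and between the normal replicates were also seen over all tested short transcripts, which include the short members. Medians of short transcripts without the members are not given here. By the longest annotated coding transcript, the members' median length was 926 bases, against 3039 bases over the 12488 tested features with an annotated length. Among the 689 tested features under 1000 bases, the median relative to the normal mean was -0.075 and -0.042 in miR-29a, -0.096 and 0.18 in miR-29b, -0.22 and -0.17 in NC-miR at day 4, -0.12 and -0.10 in NC-miR at day 2, and 0.10 and -0.10 in normal mice. Among the 48 members under 1000 bases it was -0.16 and -0.049, -0.060 and 0.24, -0.23 and -0.086, -0.20 and -0.12, and 0.12 and -0.12 in the same libraries. The high miR-29b replicate 2 and the split normal pair appeared in short transcripts at large. In NC-miR at day 4 both replicates were low there, with medians closer together than among the short members. At 4000 bases or more the sign was turned, with all features at -0.17 in miR-29b replicate 2, against 0.068 in NC-miR day 4 replicate 1. The part of transcript length in the members' values was not tested.

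**Figure D5:**
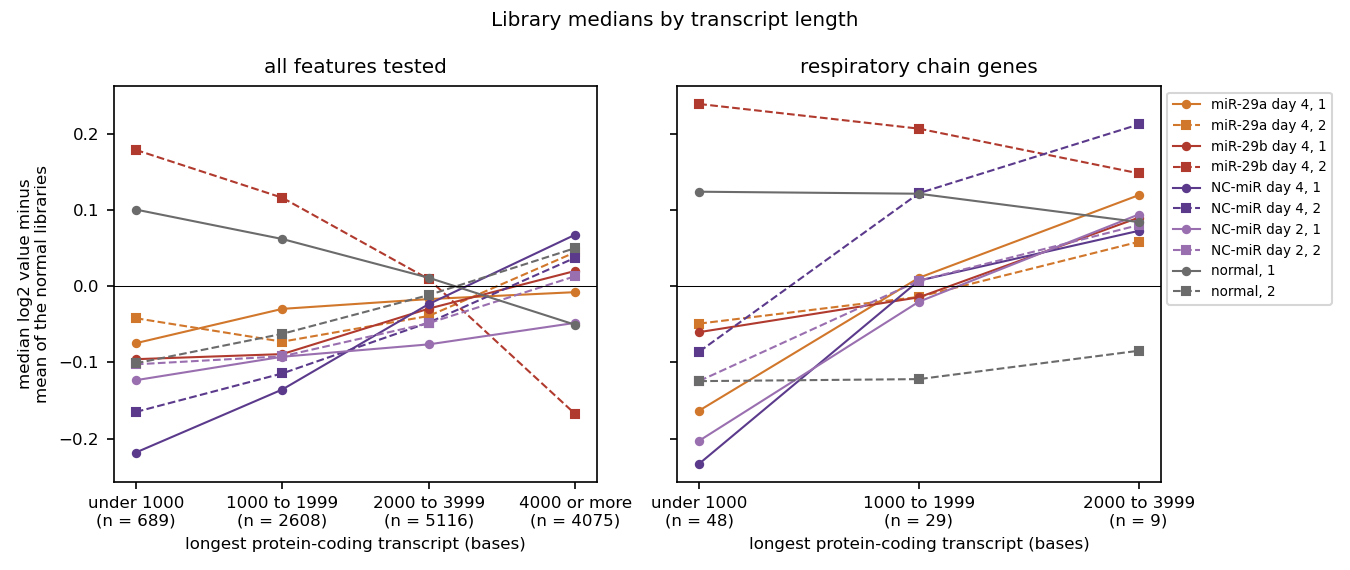
Median log2 value relative to the normal mean in each library, by annotated transcript length, for all tested features (n = 689, 2608, 5116 and 4075) and for the respiratory chain genes (n = 48, 29 and 9). In the shortest class both medians are highest in miR-29b replicate 2 and lowest in NC-miR day 4 replicate 1.

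With a smooth trend on length removed from every library, an alternative added after the data were seen, the miR-29b replicate gap closed and others narrowed. Replicate 2 of miR-29b was then above replicate 1 in 52 of the 88 genes, with a median gap of 0.025, and normal replicate 1 was above replicate 2 in 73, with a median of replicate 2 minus replicate 1 of -0.093. NC-miR day 4 replicate 2 remained above replicate 1 in 76 genes, with a median gap of 0.097. The members' medians relative to the normal mean became 0.031 and 0.023 in miR-29a, 0.058 and 0.081 in miR-29b, 0.091 and 0.16 in NC-miR at day 4, -0.0015 and 0.045 in NC-miR at day 2, and 0.046 and -0.046 in normal mice. The NC-miR day 4 libraries were then the highest pair, whereas on the deposited values they held the library with the most lowest values. No member was called in this alternative either.

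Neighbouring pathways held 2 genes that passed the test with higher values in DSS-treated mice. Hk2, the inducible hexokinase that starts glycolysis, was the 1 gene called among 15 tested glycolytic genes. Of all features, 1.42% were called in the mean of the 4 DSS-treated groups against normal mice. In miR-29b, NC-miR at day 4 and NC-miR at day 2 against normal mice the shares were 0.49%, 0.383% and 1.22%. For Hk2 the log2 values were -0.24 and -0.41 in the miR-29a libraries, 0.38 and 0.25 in the miR-29b libraries, 0.52 and 0.37 in NC-miR at day 4, 0.40 and 0.074 in NC-miR at day 2 and -0.71 and -0.94 in normal mice. All 8 DSS-treated libraries lay above both normal libraries. The share of all features with such a separation is not given here. The mean of the 4 DSS-treated groups minus normal mice was 0.99 ± 0.13 (SE, limma adjusted p = 0.0129). By group, Hk2 was higher in miR-29b than in normal mice by 1.14 ± 0.16 (SE, limma adjusted p = 0.0346). In NC-miR at day 4 it was higher than in normal mice by 1.27 ± 0.16 (SE, limma adjusted p = 0.024). In NC-miR at day 2 it was higher than in normal mice by 1.06 ± 0.16 (SE, limma adjusted p = 0.0236). The miR-29a group was not called. The median of the glycolytic list was 0.25 in the mean of the DSS-treated groups against normal mice, with 12 of 15 positive, against -0.038 over all features.

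Coq10b, a lipid-binding protein known to support coenzyme Q function, was called among 19 tested electron and exchange carriers. Of all features, 1.42% were called in the mean of the 4 groups, 0.421% in miR-29a and 1.22% in NC-miR at day 2 against normal mice. For Coq10b the log2 values were 0.69 and 0.54 in the miR-29a libraries, 0.38 and 0.30 in the miR-29b libraries, 0.42 and 0.16 in NC-miR at day 4, 0.45 and 0.36 in NC-miR at day 2 and -0.37 and -0.65 in normal mice. Again all 8 DSS-treated libraries lay above both normal libraries. For the mean of the 4 groups minus normal mice the difference was 0.92 ± 0.12 (SE, limma adjusted p = 0.0137). In the miR-29a group Coq10b was higher than in normal mice by 1.12 ± 0.15 (SE, limma adjusted p = 0.0336). In NC-miR at day 2 it was higher than in normal mice by 0.92 ± 0.15 (SE, limma adjusted p = 0.0332). With either normal library left out neither gene was called in the mean of the 4 groups, with limma adjusted p up to 0.202 for Hk2 and 0.204 for Coq10b, although the differences stayed between 0.88 and 1.10 for Hk2 and between 0.78 and 1.06 for Coq10b. In the comparisons of single groups, Coq10b was still called in 2 of the 10 fits with a library left out, and Hk2 in 4 to 7 of 10. With only the libraries of the comparison in the fit, none of these single-group differences of Hk2 and Coq10b was called, and with quantile normalization the miR-29b difference of Hk2 was not. Without NC-miR day 4 replicate 1 Hk2 differed by 1.19 between NC-miR at day 4 and normal mice and was not called.

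At most 1.42% of all features were called in any comparison, and the other lists around the chain held no called gene. These were 31 assembly factors outside the symbol rule, 15 regulators of mitochondrial biogenesis, 17 citric acid cycle genes and 76 mitochondrial ribosomal proteins. Their medians in the mean of the DSS-treated groups against normal mice were -0.055, 0.020, 0.013 and -0.087, against -0.028 for the respiratory chain genes. The 82 cytosolic ribosomal protein genes, which are short too, had a median of 0.40 in miR-29a and 0.27 in miR-29b against NC-miR at day 4, and -0.33 in NC-miR at day 4 against normal mice. Among them Rpl30, of the large subunit, was called lower in the last of these comparisons, by -1.64 ± 0.23 (SE, limma adjusted p = 0.0338). In that comparison 0.383% of all features were called. For Rpl30 the log2 values were 0.21 and -0.17 in the miR-29a libraries, -0.12 and 0.30 in the miR-29b libraries, -1.61 and -1.56 in NC-miR at day 4, -0.44 and 0.0028 in NC-miR at day 2 and 0.26 and -0.15 in normal mice. Both NC-miR day 4 libraries lay below the other 8. The call held in 8 of 17 alternatives, 4 of them among the 10 fits with a library left out, and was lost, among others, without the floor filter and with only the libraries of the comparison in the fit.

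Cell type markers also differed between libraries, and their part in the members' values was not tested. The median of 10 absorptive colonocyte markers relative to the normal mean was 0.24 and 0.41 in miR-29a, 0.56 and 0.57 in miR-29b, 0.43 and 0.15 in NC-miR at day 4, 0.14 and 0.23 in NC-miR at day 2, and 0.10 and -0.10 in normal mice. Of these, Slc26a3, Aqp8 and Car1 were called higher in the mean of the DSS-treated groups against normal mice, by 0.93 ± 0.14 (SE, limma adjusted p = 0.0207) for Slc26a3. Of all features, 1.42% were called in that comparison, 0.421% in miR-29a and 0.49% in miR-29b against normal mice. For Slc26a3 the log2 values were 0.86 and 0.62 in the miR-29a libraries, 0.77 and 0.30 in the miR-29b libraries, 0.22 and 0.39 in NC-miR at day 4, -0.26 and -0.23 in NC-miR at day 2 and -0.58 and -0.62 in normal mice. For Aqp8 the log2 values were 0.89 and 1.00 in the miR-29a libraries, 0.32 and 0.49 in the miR-29b libraries, -0.072 and 0.16 in NC-miR at day 4, 0.20 and 0.21 in NC-miR at day 2 and -0.44 and -1.35 in normal mice. For Car1 the log2 values were 0.97 and 0.48 in the miR-29a libraries, 1.38 and 1.35 in the miR-29b libraries, 0.61 and 0.52 in NC-miR at day 4, -0.37 and -0.09 in NC-miR at day 2 and -0.23 and -1.14 in normal mice. In Slc26a3 and Aqp8 every DSS-treated library lay above both normal libraries, while in Car1 NC-miR day 2 replicate 1 lay below normal replicate 1. With a library left out in turn, Slc26a3 was called in 8 of 10 fits, Aqp8 in 5 and Car1 in 2, and Car1 was not called without the floor filter. By group against normal mice, Slc26a3 was called higher with miR-29a (1.34, limma adjusted p = 0.0294) and with miR-29b (1.13, limma adjusted p = 0.0486). Aqp8 was called higher with miR-29a (1.84, limma adjusted p = 0.0346) and Car1 with miR-29b (2.05, limma adjusted p = 0.0336). With only the libraries compared in the fit, all of these were lost. No NC-miR group was called for these genes, and no feature was called between either miR-29 group and NC-miR at day 4. All 6 goblet cell markers were positive in miR-29b against normal mice (median 0.55), with 0.39 and 0.67 in the miR-29b libraries. The replicate that was high in the respiratory chain genes was thus also the higher of the pair for goblet cell markers, while the colonocyte medians of the pair were alike.

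The 8 tested markers of B and plasma cells were negative in all 4 groups against normal mice, with medians of -1.03 for miR-29a, -1.81 for miR-29b, -1.58 for NC-miR at day 4 and -1.48 for NC-miR at day 2. Cxcr5 among them was called lower in the mean of the DSS-treated groups against normal mice, by -1.43 ± 0.23 (SE, limma adjusted p = 0.0245), and in 5 of the 10 fits with a library left out. With miR-29b against normal mice Cxcr5 was also called lower, by -1.82 ± 0.29 (SE, limma adjusted p = 0.0486), and in 2 of the 10 such fits. Of all features, 1.42% were called in the mean of the DSS-treated groups and 0.49% in miR-29b against normal mice. For Cxcr5 the log2 values were 0.45 and 0.13 in the miR-29a libraries, -0.57 and -0.56 in the miR-29b libraries, -0.12 and -0.46 in NC-miR at day 4, -0.61 and 0.30 in NC-miR at day 2 and 1.40 and 1.11 in normal mice. Its normal libraries were the highest of the 10. The 9 smooth muscle markers had a median of -0.40 relative to the normal mean in NC-miR day 4 replicate 2, against 0.034 in replicate 1, and were all positive in miR-29a and in miR-29b against NC-miR at day 4 (medians 0.35 and 0.35). Medians of the other lists in the mean of the DSS-treated groups against normal mice were 0.82 for 7 adipocyte markers, 0.52 for 6 T and NK cell markers, 0.12 for 8 monocyte and macrophage markers, 0.047 for 7 fibroblast markers, 0.26 for 6 endothelial markers, -0.079 for 4 enteric neuron and glia markers, 0.80 for 3 squamous markers and -0.26 for 3 brown adipocyte and striated muscle markers, and no gene of these lists was called. The squamous value includes NC-miR day 4 replicate 1, which stood apart in these markers. For scale, no comparison called more than 1.42% of all features.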

How the data were processed

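Total RNA from the colorectum was extracted with the miRNeasy kit and sequenced from TruSeq stranded mRNA libraries, per the labels' protocols. TopHat2 2.0.13, Bowtie2 2.2.3, SAMtools 0.1.19, Cuffnorm 2.2.1 and the mouse build mm10 are named, without settings, by the submitters' processing notes. Per the file headers the values are FPKM, yet they run below and above 0, and the deposited numbers were read as log2 ratios of each library to a baseline of the gene. The design had assumed FPKM, so the test was run on these log2 values as deposited. The most frequent value of each library, -0.0427 to 0.0331, was read as its floor. After subtraction of that constant, libraries tied for a feature's minimum (within 2e-05, at least 2 of them) were taken as at the floor, and features with some group wholly above it were tested. Differences were fitted with limma 3.58.1 in R 4.3.3 over 5 group means, with 5 residual and 3.26 prior degrees of freedom, 2-sided, with Benjamini-Hochberg adjustment over all 13051 tested features. ± is limma's standard error with 2 libraries a group. The code was tested on simulated data with known differences.

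Per-library values are given for the 2 genes of smallest F-test p in each complex and for tissue isoforms with their general partners. They are also given for 8 catalytic or core subunits and for genes of other lists that were called. Ndufaf4 and Ndufaf6, which belong to no complex, were described for the smallest F-test p of all members. Ndufaf1 and Ndufs5 were singled out after their values were seen. The members and lists were chosen with earlier results of these data known. Transcript lengths are from GENCODE vM21 and coordinates, promoters and miRNAs from RefSeq GRCm38.p6; 3 members carry a newer symbol there. The stranded kit is named in the labels, but whether counting used strand is not given in the sources used here. Alternatives were no floor filter, equal medians, quantile normalization, only the libraries compared, a replicate block, limma's robust option, each library left out, and, added after the data were seen, removal of a length trend (lowess, span 0.3). Libraries were not duplicates, with correlations between libraries of -0.422 to 0.425 over tested features. The heat map leaves out 1 tested member, which is not reported here.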

Additional observations from a re-analysis of the deposited data

How the results depend on the processing

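The count of respiratory chain genes called stayed at 0 in every comparison under every alternative run, with 1 exception: with only the libraries of NC-miR at day 4 and day 2 in the fit, 1 gene was called, Ndufs5, whose day 2 libraries are at the floor. The members' median difference depended on single libraries. With each library left out in turn it ran from -0.19 to 0.079 for miR-29a, -0.049 to 0.23 for miR-29b, -0.21 to 0.052 for NC-miR at day 4, -0.23 to 0.023 for NC-miR at day 2 and -0.16 to 0.088 for the mean of the 4 DSS-treated groups, each against normal mice. The range was -0.061 to 0.088 for miR-29a and 0.049 to 0.32 for miR-29b against NC-miR at day 4, -0.28 to -0.021 for miR-29a against miR-29b, and -0.034 to 0.12 for NC-miR at day 4 against day 2. With the length trend removed, chosen after seeing the data, the median was 0.11 for NC-miR at day 4 against normal mice and -0.023 for miR-29b against NC-miR at day 4; the cause was not tested. Quantile normalization and equal medians moved no median by more than the spread between replicates, 0.123 log2 units. Of 5049 alternative values for 33 genes described singly over 297 gene comparisons, 4849 stayed within the spread between replicates, 199 moved further and 1 passed the threshold, that of Ndufs5. With 2 libraries a group and unknown depth, differences within the intervals given may have gone uncalled.

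The replicate numbers did not pair the libraries: deviations of same-numbered libraries from their group means correlated at -0.24 to 0.11 between groups. With the replicate block, 0 respiratory chain genes were called in each comparison. The medians could not change with the block, because every group holds both replicate numbers. The call of Rpl30 in NC-miR at day 4 against normal mice was lost with the block.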
